A study of Homo sapiens with 18 samples.

Results

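The collagen genes of SJSA osteosarcoma cells were examined across 6 drug conditions. Every gene whose symbol in the deposited tables is COL, a number, A and a number was taken, which gave 43 of 23368 genes. By the kind of assembly their chains form, 11 are fibrillar, 10 belong to the FACIT class, 9 form networks, 5 belong to beaded filaments, 4 span the membrane, 2 are multiplexins, 1 (COL7A1) forms anchoring fibrils and 1 (COL28A1) is set apart. The choice used only the symbol and no measured value. COL26A1 is listed in the tables under its older symbol EMID2, which this pattern misses, so it is not among the 43.

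Collagens are trimers of alpha chains wound into a triple helix, made in the endoplasmic reticulum, secreted and assembled outside the cell. Fibrillar collagens such as types I, III, V and XI build the banded fibrils of bone, skin and cartilage, and type IV and VIII collagens form the sheets of basement membranes. FACIT collagens sit on the surface of fibrils, type VI forms beaded microfilaments, transmembrane collagens stay anchored in the cell surface, and multiplexins (types XV and XVIII) belong to the basement membrane zone. Type I collagen is the main protein of bone matrix, the material that osteoblasts lay down.

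SJSA-1 is a human osteosarcoma line in which MDM2 and CDK4 are amplified. The cells received the solvent DMSO, Nutlin, the CDK4/6 inhibitor PD0332991 (palbociclib) or both. Nutlin blocks MDM2, the ubiquitin ligase that keeps p53 low, and was given at 20 µM for 6 h. PD0332991 was given at 10 µM over a schedule of 30 h, either throughout (PD30) or for the first 24 h and then removed (PD24), and the combinations are called N+PD24 and N+PD30. In the combinations, Nutlin was present during the last 6 h of the schedule. Each of the 6 groups had 3 libraries, 18 in all, described as biological triplicates of this 1 line. All groups share the line and its amplifications, so no group carries unamplified MDM2 or CDK4. The question behind the comparisons was how CDK4 inhibition alters the transcriptional response to an MDM2 antagonist.

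Total counts per library ran from 12704845 to 40231041, with a median of 29608936, and the lowest belonged to N+PD30 library 1. Levels are given as CPM, counts scaled to a library total of 1000000, and a level is divided by the length of the gene's longest transcript (CPM per kb) where genes are compared with each other. The mesenchymal markers VIM and SPARC lay at 2788 ± 192 and 1429.6 ± 34.6 CPM in DMSO (mean ± SD, n = 3), and RUNX2, the early osteoblast regulator, at 30.2 ± 2.34 CPM. Markers of later osteoblasts were mixed. SP7, BGLAP and IBSP were near 0, with DMSO means of 0.0324 ± 0.00219, 0.0101 ± 0.0175 and 0.0209 ± 0.0181 CPM. ALPL, the alkaline phosphatase of mineralizing cells, measured 81.7, 71.7 and 19.2 CPM in DMSO, and SPP1, which encodes osteopontin, 5.7, 11.5 and 14.2 CPM. CDKN1A, the p53 target that encodes p21, rose from 184 ± 38 CPM in DMSO to 3984 ± 146 CPM in Nutlin, and the proliferation marker MKI67 stood at 684 ± 62.1 CPM in DMSO against 5.23 ± 1.2 CPM in PD30. In these bulk libraries, fewer cells that express a gene and less RNA per cell cannot be told apart.

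Collagen levels per kb of transcript ran from COL1A1, the highest in DMSO, to COL20A1, which had 0 counts in all 3 DMSO libraries. In DMSO, 20 of the 43 lay at 10 CPM or more, 6 between 1 and 10 CPM and 17 under 1 CPM. The 10 most abundant made up 87.4% of the summed collagen level per kb. COL1A1, the alpha 1 chain of type I collagen, led the order with 292 ± 99.5 CPM per kb in DMSO (mean ± SD, n = 3). COL5A2 of type V followed with 241 ± 29.4, then COL3A1 of type III with 186 ± 63 and COL6A3 of type VI with 169.9 ± 12.7 CPM per kb. COL11A1 of type XI (142 ± 24), COL4A2 (138 ± 42.2) and COL4A1 (130.4 ± 32.5) of the basement membrane came next. Neighbours in this order differed by less than the larger of their SDs, except COL6A3 and COL11A1, so most of the ranks are not separated by 3 libraries. The order also depends on the length used. Per kb of all exons of the gene, COL5A2 came first in DMSO with 225 ± 27.5, then COL1A1 with 192 ± 65.3, COL3A1 with 151 ± 51.2, COL11A1 with 115 ± 19.3 and COL6A3 with 83.2 ± 6.2 CPM per kb.

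The classes differed in how many of their members were expressed. At 10 CPM or more in DMSO stood 8 of 11 fibrillar, 4 of 9 network, 3 of 5 beaded filament, 2 of 10 FACIT, 1 of 4 transmembrane and 1 of 2 multiplexin genes, and COL7A1. COL12A1 (64.5 ± 2.68 CPM per kb in DMSO) and COL16A1 (14.4 ± 5.18) carried the FACIT class, while the other 8 FACIT genes lay under 1 CPM. COL13A1 was the main transmembrane collagen, at 23.9 ± 3.2 CPM per kb, against 0.185 ± 0.062 for COL25A1. COL18A1, whose C-terminal fragment is endostatin, stood at 16.4 ± 5.84 CPM per kb, and its fellow multiplexin COL15A1 at 1.39 ± 0.14. COL7A1, which anchors the skin's basement membrane to the dermis, reached 25 ± 1.28 CPM per kb. Cartilage collagens were low apart from COL11A1: COL2A1 had 1.17 ± 0.322 CPM in DMSO, COL11A2 1.44 ± 0.353 CPM and COL10A1 0.218 ± 0.133 CPM. COL9A1, COL9A3, COL6A5, COL10A1, COL23A1 and COL28A1 had too few counts to be tested in any comparison over all libraries of its groups.

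**Figure D1:**
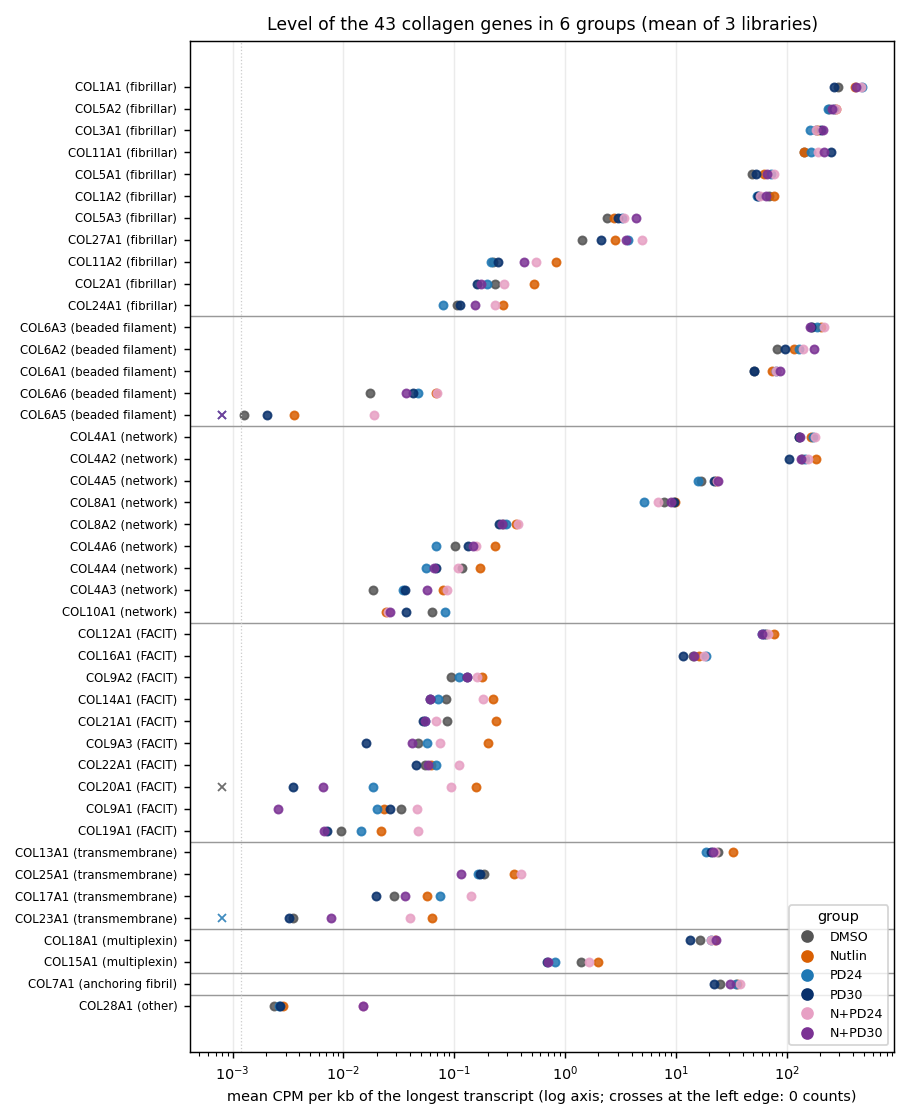
Mean level of each of the 43 collagen genes in the 6 groups, in CPM per kb of the longest transcript on a log axis, ordered within classes, with 1 point per group (mean of 3 libraries) and a cross at the left edge for 0 counts. COL1A1 leads, and 20 genes at 10 CPM or more in DMSO stand apart from a group of low genes in which Nutlin points lie farthest right for several.

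Summed over the 43 genes, the collagens took 14067, 11647 and 9532 CPM in the 3 DMSO libraries, a mean of 1.17% of the counts. The sums were 15156, 14318 and 13905 CPM in Nutlin, 14546, 14956 and 12078 in PD24 and 12867, 13028 and 11302 in PD30. They were 14089, 16082 and 15203 CPM in N+PD24 and 14962, 14075 and 12782 in N+PD30. Every pair of groups compared overlapped. The exact two-sided permutation p was 0.2 for Nutlin and for PD24 against DMSO, 0.7 for PD30 against DMSO, 0.5 for N+PD30 and 0.4 for N+PD24 against Nutlin, and 0.3 for PD30 against PD24. With 3 libraries against 3 the smallest p this test can give is 0.1. This unpaired test could therefore not decide whether total collagen mRNA changed. Same-numbered libraries were not tested as pairs for the sums.

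By class, the makeup of the sum, taken per kb, varied by a few percentage points between groups. Fibrillar genes made up 56.6% ± 3.58 of the summed CPM per kb in DMSO (SD, n = 3), and group means ran from 54.8% ± 4.85 in Nutlin to 60.5% ± 2.91 in PD30. Beaded filament genes made up 17.8% ± 2.53 in DMSO, network genes 16.9% ± 0.824, FACIT genes 4.68% ± 0.588 and transmembrane genes 1.46% ± 0.47. The network share separated with continuous PD0332991. It was 17.9, 16.3 and 16.6% in the DMSO libraries and 15.9, 15.5 and 12.5% in the PD30 libraries. With Nutlin it was 18.6, 17 and 17.8% alone and 14.3, 14.5 and 13.2% in N+PD30. All PD30 libraries lay under all DMSO libraries, and all N+PD30 libraries under all Nutlin libraries, each with an exact permutation p of 0.1, the smallest possible. In N+PD24 the FACIT share (3.94, 3.54 and 4.11%) lay under all Nutlin libraries (4.47, 4.13 and 4.52%), at the same p.

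Chains that share a trimer were compared as ratios of CPM per kb, which cancel the library's depth. The size of a ratio depends on the gene length used. With all exons as the length, the ratios would be multiplied by 1.18 for COL1A1 to COL1A2, 1.33 for COL4A1 to COL4A2, 0.811 for COL5A1 to COL5A2, 1.18 for COL6A1 to COL6A2 and 0.645 for COL6A3 to COL6A1, the same in every library. A type I collagen molecule usually holds 2 alpha 1 chains and 1 alpha 2 chain, from COL1A1 (GRCh37 chr17:48261462-48278993, minus strand) and COL1A2 (chr7:94024207-94060539, plus strand). The COL1A1 to COL1A2 ratio was 3.99, 4.39 and 4.35 in DMSO and 5.77, 11.7 and 11.7 in PD24. In PD30 it was 3.27, 5.34 and 6.88. The ratio was higher in every PD24 library than in every DMSO library (means 9.74 ± 3.44 against 4.24 ± 0.22, exact permutation p 0.1), whereas PD30 overlapped both. With Nutlin the ratio was 3.39, 6.88 and 7.46, in N+PD24 4.21, 9.81 and 13.8 and in N+PD30 4.68, 7.58 and 9.53. In all 6 groups library 1 had the lowest ratio, and the groups with Nutlin overlapped each other.

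The COL6A1 to COL6A2 ratio varied little between the libraries of a group. Both genes lie on chromosome 21, on the same strand with a gap of 93061 bases (GRCh37, COL6A1 chr21:47401684-47424964, plus strand, COL6A2 chr21:47518026-47552762, plus strand). The ratio was 0.627, 0.645 and 0.604 in DMSO and 0.616, 0.632 and 0.588 in PD24. It was 0.485, 0.571 and 0.518 in PD30. With Nutlin it was 0.662, 0.635 and 0.615 alone, 0.589, 0.604 and 0.553 in N+PD24 and 0.459, 0.534 and 0.503 in N+PD30. Every PD30 library lay under every DMSO and every PD24 library, and every N+PD30 and N+PD24 library under every Nutlin library, each at an exact permutation p of 0.1. DMSO is shared between the PD24 and PD30 comparisons, and Nutlin between those of the combinations.

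COL4A1 and COL4A2, the partners of the common type IV trimer, lie head to head on chromosome 13 with gene models that share 1346 bases (GRCh37, COL4A1 chr13:110801310-110959504, minus strand, COL4A2 chr13:110958159-111165556, plus strand). Their ratio had group means from 0.903 ± 0.187 in Nutlin to 1.21 ± 0.212 in PD30, and the groups overlapped in every comparison. The COL5A1 to COL5A2 ratio was 0.239, 0.186 and 0.174 in DMSO and 0.291, 0.364 and 0.275 in PD24. All PD24 libraries lay above all DMSO libraries and above all PD30 libraries (0.17, 0.198 and 0.224), both at an exact permutation p of 0.1. The COL6A3 to COL6A1 ratio was 3.98, 2.3 and 2.48 in Nutlin and 1.64, 1.78 and 2.14 in N+PD30, without overlap. In all, 84 such tests of ratios, sums and shares were made, 13 with groups that did not overlap, and the smallest Benjamini-Hochberg adjusted p was 0.646 by exact permutation.

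**Figure D2:**
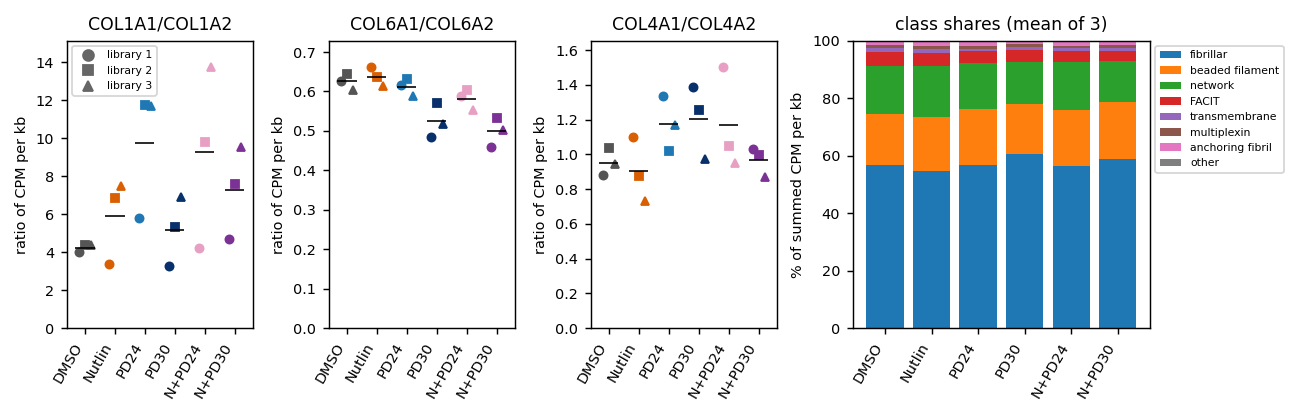
Left to right, the ratio of CPM per kb of 3 pairs of partner chains in each library (symbols number the libraries, lines are group means), and the mean share of each class in the summed CPM per kb of 3 libraries. COL1A1 to COL1A2 spread widely in the drug groups, from 3.27 to 13.8, while COL6A1 to COL6A2 was lower in PD30 and N+PD30.

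The abundant collagens had a higher median spread between libraries of a group than all genes at that level, by the least in N+PD30. In DMSO, the 20 members at 10 CPM or more had a median coefficient of variation (SD over mean) of 25.2%, against 7.49% for all 9653 genes at that level, and 17 of the 20 lay above the median of all genes. In Nutlin the medians were 17.4% and 9.45%, in PD24 18.9% and 11.6%, and in PD30 16.7% and 8.46%. In N+PD24 they were 25.4% and 10.2%, and in N+PD30 13.2% and 11.9%. Members above the median of all genes numbered 16 of 21 in Nutlin, 13 of 20 in PD24, 15 of 20 in PD30, 17 of 20 in N+PD24 and 11 of 20 in N+PD30.

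The spread repeated by library number. COL3A1 measured 1336, 1073 and 650.4 CPM in DMSO libraries 1, 2 and 3, and 1432, 1019 and 688 CPM in Nutlin. It measured 1140.2, 922 and 593 CPM in PD24, 1320.0, 1308 and 749 in PD30, 1289, 1075 and 683 in N+PD24 and 1524, 1212 and 736 in N+PD30. Library 3 was the lowest of its group in all 6 groups, and library 1 the highest. COL1A2 measured 583, 408 and 261 CPM in DMSO, 615, 430.1 and 326 in Nutlin and 468, 319 and 191 in PD24, again with library 1 highest and library 3 lowest in 6 of 6 groups. Of the 20 members at 10 CPM or more, 6 (COL1A2, COL3A1, COL4A1, COL5A2, COL5A3 and COL11A1) were lowest in library 3 in all 6 groups, against 3.13% of 8023 genes at that level in every group. Library 1 was highest in 6 of 6 groups for 4 of them (COL1A2, COL3A1, COL4A1 and COL5A2), against 1.72% of the genes. COL13A1 was the exception, highest in library 3 in 6 of 6 groups, as were 8.43% of the genes. The labels do not say whether libraries with the same number share a culture or a day, and what moved with the number was not tested.

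**Figure D3:**
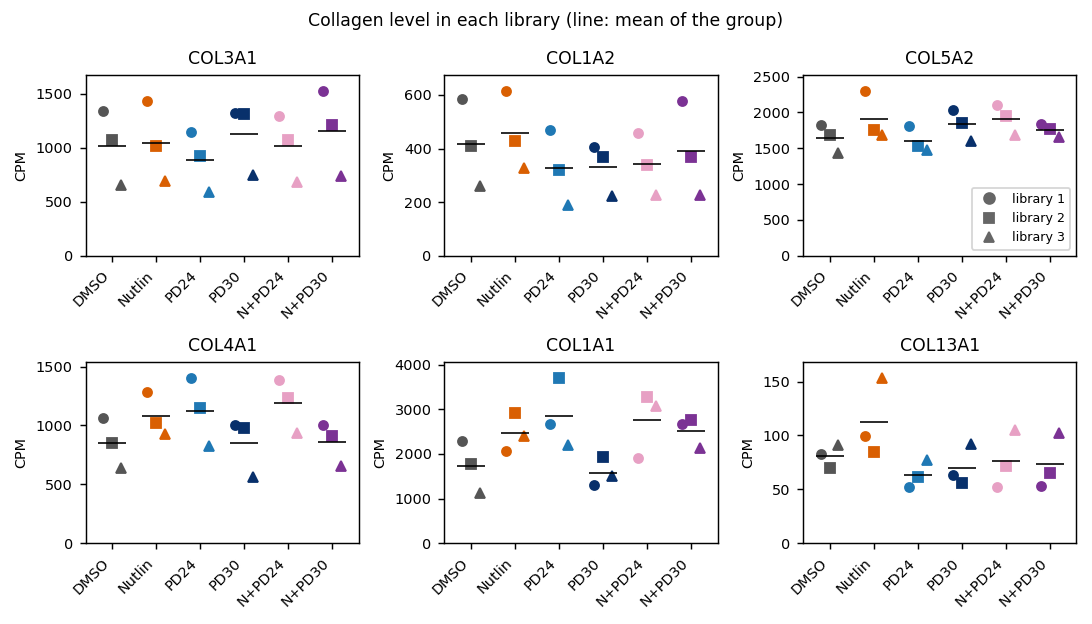
CPM of 6 collagen genes in each of the 18 libraries, with 1 symbol for each library number and a line at each group's mean. COL3A1, COL1A2, COL5A2 and COL4A1 are highest in library 1 and lowest in library 3 in every group, COL1A1 is not, and COL13A1 is highest in library 3.

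PD0332991 alone moved few collagens past the call rule, an edgeR adjusted p under 0.05 with a change over 2-fold. In PD24 against DMSO, 1 of the 31 members tested rose (COL27A1) and 1 fell (COL4A4), where 4.61% of all genes rose and 7.96% fell, 12.6% in either direction. These 2 calls became 5 without the filter on low counts (COL17A1, COL20A1 and COL6A6 added), 4 in 1 fit over 15 libraries (COL20A1 and COL6A6 added), 3 without DMSO library 1 (COL1A1 added) or PD24 library 1 (COL17A1 added), and 1, COL27A1, without any 1 of the other 4 libraries. In PD30 against DMSO, 1 of 31 fell (COL15A1) and none rose, where 5.76% of all genes rose and 9.48% fell, 15.2% in all. Among 9 markers of epithelium, cartilage, endothelium and leukocytes, 7 of them tested, none passed the call rule in PD24 and the cartilage markers SOX9 and ACAN fell in PD30. SOX9 measured 74.3, 72.7 and 66.9 CPM in DMSO and 27.1, 35.3 and 40.9 CPM in PD30, and ACAN 0.485, 0.59 and 0.453 and 0.0689, 0.195 and 0.0852 CPM. The 9 markers summed to 259.8 to 339 CPM in DMSO, 196 to 309.7 CPM in PD24 and 163 to 188.6 CPM in PD30, where 1 was at 0 in all libraries, and their part in the collagen values was not tested. With the limit on the fold left out, 5 members were higher and 3 lower in PD24, beside 17.5% and 20.8% of all genes (38.3% together). In PD30 there were 4 higher members and 2 lower, beside 22.9% and 25.4% (48.3% together). Members had a median log2 fold change of 0.11 in PD24 and -0.04 in PD30, and all genes one of 0.02 and 0.00. Both comparisons share the DMSO libraries. Over all comparisons, 46 pairs of a member and a comparison passed the adjusted p and not the fold, and 34 of these lost the p under at least 1 of the alternatives tried.

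COL27A1 (GRCh37 chr9:116917817-117074791, plus strand), a fibrillar collagen of growth plate cartilage, was the member with the clearest change in PD24. It measured 12.2, 10.9 and 10.2 CPM in DMSO and 26.4, 31.1 and 29 CPM in PD24, so that every PD24 library was more than 2 times the highest DMSO library. The log2 fold change was 1.40 (SE 0.13, adjusted p = 5.53e-05). In PD30 it measured 12, 15.4 and 22.3 CPM, overlapping DMSO, with a log2 fold change of 0.57 (SE 0.21, adjusted p = 0.0452), past the adjusted p but not the fold. Its promoter is shown because it is the called fibrillar member with the highest level. Capitals mark the GC box GGGCGG, the motif of Sp1 family factors, on either strand, in RefSeq sequence of GRCh38.p14 from 250 bases before to 50 after the start.
COL27A1 promoter, chr9:114155287-114155586, plus strand: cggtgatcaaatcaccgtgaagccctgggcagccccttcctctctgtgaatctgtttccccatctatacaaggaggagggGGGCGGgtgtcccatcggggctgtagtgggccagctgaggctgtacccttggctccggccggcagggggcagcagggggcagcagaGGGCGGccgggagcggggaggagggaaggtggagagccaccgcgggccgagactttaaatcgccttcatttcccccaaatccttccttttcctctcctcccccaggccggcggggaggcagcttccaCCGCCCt

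COL15A1 (GRCh37 chr9:101705461-101833074, plus strand), the multiplexin of muscle and capillary basement membranes, was lower in PD24 and PD30 than in DMSO. It measured 8.3, 7.49 and 6.79 CPM in DMSO, 4.69, 4.38 and 4.0 in PD24 and 4.58, 3.98 and 2.58 in PD30. All 6 PD0332991 libraries lay under all 3 DMSO libraries. The log2 fold change was -1.04 (SE 0.21, adjusted p = 0.00287) in PD30 and -0.77 (SE 0.16, adjusted p = 0.0047) in PD24, of which the first passed the call rule. That call was lost without DMSO library 1 (log2 fold change -0.96) and without PD30 library 3 (-0.82), both through the limit on the fold. Without PD30 library 1, COL4A4 was called as well. Exons of an unnamed gene on the opposite strand overlap COL15A1. Its promoter, drawn by the same rule and with GC boxes in capitals, is shown because COL15A1 fell with continuous PD0332991 both without and with Nutlin.
COL15A1 promoter, chr9:98943657-98943956, plus strand: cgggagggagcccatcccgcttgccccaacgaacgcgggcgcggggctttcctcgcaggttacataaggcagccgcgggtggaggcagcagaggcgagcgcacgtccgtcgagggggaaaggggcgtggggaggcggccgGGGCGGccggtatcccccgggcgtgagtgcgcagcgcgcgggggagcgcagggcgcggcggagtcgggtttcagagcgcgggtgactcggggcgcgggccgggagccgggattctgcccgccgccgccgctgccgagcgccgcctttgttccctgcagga

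COL4A4 (GRCh37 chr2:227867430-228029169, minus strand), a chain of the kidney's basement membrane collagen, was the third member called. It measured 1.09, 1.11 and 1.33 CPM in DMSO and 0.781, 0.422 and 0.447 CPM in PD24, without overlap. The log2 fold change was -1.07 (SE 0.29, adjusted p = 0.0185). Leaving out DMSO library 2 or 3 or PD24 library 2 or 3 took the adjusted p past 0.05, to 0.050, 0.0589, 0.0544 and 0.0605, at log2 fold changes of -1.11, -0.99, -0.96 and -0.90. In PD30 it measured 0.861, 0.417 and 0.767 CPM, with a log2 fold change of -0.81 (SE 0.29, adjusted p = 0.0405).

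Among abundant members, COL11A1 was higher in PD30 at 1927, 1914 and 1640.1 CPM, all above the DMSO libraries at 1096, 1186 and 846 CPM. Its log2 fold change was 0.79 (SE 0.13, adjusted p = 0.000846), under 2-fold. COL8A1, a short chain network collagen of blood vessels and cornea, measured 47.5, 40.4 and 46.5 CPM in DMSO, 29.3, 28.4 and 31.5 in PD24 and 55.9, 49.4 and 57.9 in PD30. It was lower in PD24 (-0.57 (SE 0.11, adjusted p = 0.00295)) and higher in PD30 (0.26 (SE 0.10, adjusted p = 0.0465)), both under 2-fold. Exons of a gene on the opposite strand overlap COL8A1, and its reads may not be separable from it. COL1A1 measured 2296, 1767 and 1122 CPM in DMSO, 2664, 3697 and 2203 in PD24 and 1310.3, 1936 and 1505 in PD30, and overlapped DMSO in both. By separation of libraries, 6 of 31 members did not overlap DMSO in PD24 (50.1% of all genes) and 6 of 31 in PD30 (57.3%).

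Keeping PD0332991 for the last 6 h (PD30) was compared with removing it (PD24). By edgeR's quasi-likelihood test, 0 of 32 members passed the call rule, where 7.49% of all genes were called, and DESeq2 called 0 members as well. At an adjusted p under 0.05 alone, 3 members were higher and 6 lower in PD30, beside 12.2% and 12.9% of all genes (25.2% together). COL8A1 had a log2 fold change of 0.83 (SE 0.11, adjusted p = 0.000922). COL11A1 (0.54) and COL4A5 (0.46) were the other higher members, with adjusted p values of 0.00718 and 0.0126. The lower members were COL1A1 (-0.89), COL27A1 (-0.83), COL16A1 (-0.74), COL7A1 (-0.72), COL6A1 (-0.68) and COL5A1 (-0.51), with adjusted p values from 0.00609 to 0.035. COL1A1 was lower in every PD30 library (highest 1936 CPM) than in every PD24 library (lowest 2203 CPM). Libraries with the same number deviated together in this comparison, and with the number as a block 0 members were called too. Without the filter on low counts 1 member, COL17A1, passed the call rule. Leaving out any 1 library let 1 member past it, which was COL17A1, COL1A1 or COL27A1. Of the 32 members, 11 did not overlap, against 42.1% of all genes.

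Nutlin alone raised collagens, most of them at low levels. Of 34 members tested against DMSO, 11 rose and none fell, where 12.4% of all genes rose and 20.8% were called in either direction. Of the 11, COL4A3, COL6A6, COL20A1 and COL21A1 were not tested in PD24 or PD30 against DMSO. They passed the filter on low counts here only through the Nutlin libraries, where they were high, so their rise was partly fixed by their entry into the test. Over genes also tested in both of those comparisons, a choice made after seeing the data, 7 of 30 members rose, where 7.9% of all genes did. At an adjusted p under 0.05 alone, 25 of the 34 were higher, against 26.6% of all genes. The 34 log2 fold changes were positive, with a median of 0.63 beside 0.03 for all genes tested, and over the 30 the median was 0.59 beside -0.02. The median of all genes moved from 0.03 with TMM scaling to -0.10 when libraries were scaled by total count alone, and with that scaling 9 members rose. COL25A1 (log2 fold change 0.90) and COL27A1 (0.98) then missed the 2-fold limit. In 17 of 34 members the Nutlin and DMSO libraries did not overlap, against 61.8% of all genes.

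By class, the rule called 3 of 6 FACIT, 4 of 11 fibrillar, 2 of 8 network, 1 of 2 transmembrane and 1 of 4 beaded filament genes tested, and neither multiplexin. Without the 4 members that entered through Nutlin, it called 1 of 4 FACIT, 4 of 11 fibrillar, 1 of 7 network, 1 of 2 transmembrane and 0 of 3 beaded filament genes.

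Among fibrillar genes, COL11A2 (GRCh37 chr6:33130458-33160276, minus strand), a cartilage chain of type XI, measured 1.3, 1.18 and 1.84 CPM in DMSO and 3.67, 3.96 and 8.18 CPM in Nutlin. All Nutlin libraries lay above DMSO, library 3 highest, with a log2 fold change of 1.98 (SE 0.32, adjusted p = 0.000558). COL2A1 (GRCh37 chr12:48366750-48398337, minus strand), the main cartilage collagen, measured 1.55, 1.01 and 0.97 CPM in DMSO and 2.39, 2.5 and 3.13 CPM in Nutlin. The groups did not overlap, and the log2 fold change was 1.30 (SE 0.24, adjusted p = 0.00118). COL24A1, a fibrillar collagen known from developing bone, measured 0.394, 0.798 and 0.97 CPM in DMSO and 1.34, 2.0 and 2.36 CPM in Nutlin. Its libraries did not overlap either, with a log2 fold change of 1.52 (SE 0.34, adjusted p = 0.00352). COL27A1 measured 17.4, 17.2 and 30.9 CPM in Nutlin against 12.2, 10.9 and 10.2 CPM in DMSO. All Nutlin libraries were higher, library 3 the most, and the log2 fold change of 1.10 (SE 0.21, adjusted p = 0.00149) dropped to 0.79 without that library, under the limit on the fold.

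Among FACIT genes, COL20A1 (GRCh37 chr20:61924538-61966203, plus strand) had 0 counts in all 3 DMSO libraries and 25, 23 and 60 counts in Nutlin. Set against a floor of 3 counts per DMSO library, it was at least 13.0-fold higher in Nutlin (adjusted p = 0.000355). COL21A1 (GRCh37 chr6:55921388-56258892, minus strand), found in vessel walls, measured 0.394, 0.381 and 0.291 CPM in DMSO and 0.918, 1.17 and 0.884 CPM in Nutlin. There was no overlap, and the log2 fold change was 1.60 (SE 0.29, adjusted p = 0.00112). COL14A1, which binds type I fibrils in tendon and skin, measured 0.848, 0.798 and 0.388 CPM in DMSO and 2.13, 2.0 and 1.22 CPM in Nutlin. The groups stood apart, library 3 being the lowest in both, with a log2 fold change of 1.52 (SE 0.34, adjusted p = 0.00368).

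Among network genes, COL4A3 and COL4A6 rose. COL4A3 (GRCh37 chr2:228029340-228179508, plus strand), the partner of COL4A4, measured 0.212, 0.139 and 0.097 CPM in DMSO and 0.557, 0.633 and 0.70 CPM in Nutlin. All Nutlin libraries were higher, and the log2 fold change was 2.16 (SE 0.37, adjusted p = 0.000811). COL4A4 measured 1.84, 1.5 and 1.73 CPM in Nutlin, above all DMSO libraries, with a smaller log2 fold change of 0.65 (SE 0.21, adjusted p = 0.025). COL4A6 (GRCh37 chrX:107398837-107682727, minus strand) measured 0.788, 0.59 and 0.679 CPM in DMSO and 1.64, 1.7 and 1.36 CPM in Nutlin, without overlap, a log2 fold change of 1.31 (SE 0.24, adjusted p = 0.00119). Its head-to-head neighbour on chromosome X, COL4A5, had a log2 fold change of 0.57 (adjusted p = 0.00491). Both pairs are head to head, with gaps of 170 bases between COL4A4 and COL4A3 and 340 bases between COL4A6 and COL4A5 in GRCh37. In each pair the chain with the lower level changed the more. Exons of the antisense gene MFF-DT overlap COL4A3, and the library kit is not stated to keep the strand, so their reads may not be separable. The same holds for COL1A1, COL4A2, COL5A1, COL5A3, COL8A1, COL9A1, COL9A3, COL15A1, COL16A1, COL18A1 and COL19A1, which exons on the opposite strand overlap.

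The COL4A4 and COL4A3 windows from RefSeq GRCh38.p14, built as above with GC boxes in capitals, are shown because both genes were called in at least 1 comparison and their windows overlap. The 82 bases that they share lie at the upstream end of both, away from the starts, and read as reverse complements.
COL4A4 promoter, chr2:227164156-227164455, minus strand: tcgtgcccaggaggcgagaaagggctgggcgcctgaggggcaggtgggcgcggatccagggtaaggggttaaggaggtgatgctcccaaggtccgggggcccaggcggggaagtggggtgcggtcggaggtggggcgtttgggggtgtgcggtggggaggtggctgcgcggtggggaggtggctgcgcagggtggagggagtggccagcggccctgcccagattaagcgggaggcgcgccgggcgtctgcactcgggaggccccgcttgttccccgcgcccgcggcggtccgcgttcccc
COL4A3 promoter, chr2:227164374-227164673, plus strand: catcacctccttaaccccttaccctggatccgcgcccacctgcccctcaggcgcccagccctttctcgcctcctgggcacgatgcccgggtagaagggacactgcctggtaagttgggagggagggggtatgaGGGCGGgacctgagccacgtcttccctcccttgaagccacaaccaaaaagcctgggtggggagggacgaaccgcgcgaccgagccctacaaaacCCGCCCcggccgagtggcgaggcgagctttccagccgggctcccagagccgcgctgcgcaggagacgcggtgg

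COL6A6 of the beaded filament class measured 0.151, 0.139 and 0.162 CPM in DMSO and 0.492, 0.50 and 0.811 CPM in Nutlin. Every Nutlin library was higher, with a log2 fold change of 2.08 (SE 0.38, adjusted p = 0.00111). COL25A1 (GRCh37 chr4:109729881-110223908, minus strand), a transmembrane collagen found in amyloid plaques, measured 1.33, 1.08 and 2.04 CPM in DMSO and 2.65, 2.76 and 2.87 CPM in Nutlin. The groups did not overlap, and the log2 fold change was 1.02 (SE 0.24, adjusted p = 0.00518), close to the limit. It was 0.94 without DMSO library 1 and 0.83 without DMSO library 2, under the limit. Its promoter, with the same rule for capitals, holds no GC box and is shown because COL25A1 was the member whose Nutlin response differed with PD30.
COL25A1 promoter, chr4:109302609-109302908, minus strand: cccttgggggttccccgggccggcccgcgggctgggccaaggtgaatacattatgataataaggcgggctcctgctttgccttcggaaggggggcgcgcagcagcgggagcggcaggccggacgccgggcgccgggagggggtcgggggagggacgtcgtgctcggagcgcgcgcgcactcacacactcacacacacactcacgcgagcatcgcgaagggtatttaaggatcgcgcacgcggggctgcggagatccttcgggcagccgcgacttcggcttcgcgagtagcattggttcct

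The abundant collagens moved less with Nutlin. COL1A1 measured 2056, 2919 and 2404 CPM in Nutlin, overlapping DMSO, with a log2 fold change of 0.64 (SE 0.23, adjusted p = 0.0363). COL6A1 (0.67), COL6A2 (0.65), COL7A1 (0.63), COL15A1 (0.63), COL13A1 (0.59), COL18A1 (0.58), COL4A2 (0.53) and COL5A1 (0.50) also had log2 fold changes past the adjusted p and under 2-fold. COL1A2 (0.26, adjusted p = 0.456) and COL3A1 (0.17, adjusted p = 0.638) did not pass. Split at a mean level of 10 CPM, a value chosen after seeing the data, 10 of 14 members under it rose, where 27.1% of all genes under it did. Without genes that were not tested in PD24 and PD30 against DMSO, 6 of 10 rose, where 17.2% did. Of those at 10 CPM or more, 1 of 20 rose, where 2.67% of all genes did. Markers of other cell types moved both ways in the same comparison. Of 9 markers of epithelium, cartilage, endothelium and leukocytes, 7 were tested, and CDH1, KRT8, ACAN and PECAM1 rose past the call rule. CDH1, ACAN and PECAM1 were low in DMSO, at means of 0.415, 0.509 and 0.735 CPM. The more abundant epithelial marker KRT18 fell from 211 to 141 CPM (log2 fold change -0.46, edgeR adjusted p = 0.0174). The cartilage marker SOX9 fell from 71.3 to 47.5 CPM (-0.46, edgeR adjusted p = 0.00269), also under 2-fold. EPCAM did not pass the adjusted p. The summed level of the 9 markers ran from 212 to 235 CPM in Nutlin and from 259.8 to 339 CPM in DMSO, with none at 0 throughout, and their part in the collagen changes was not tested.

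**Figure D4:**
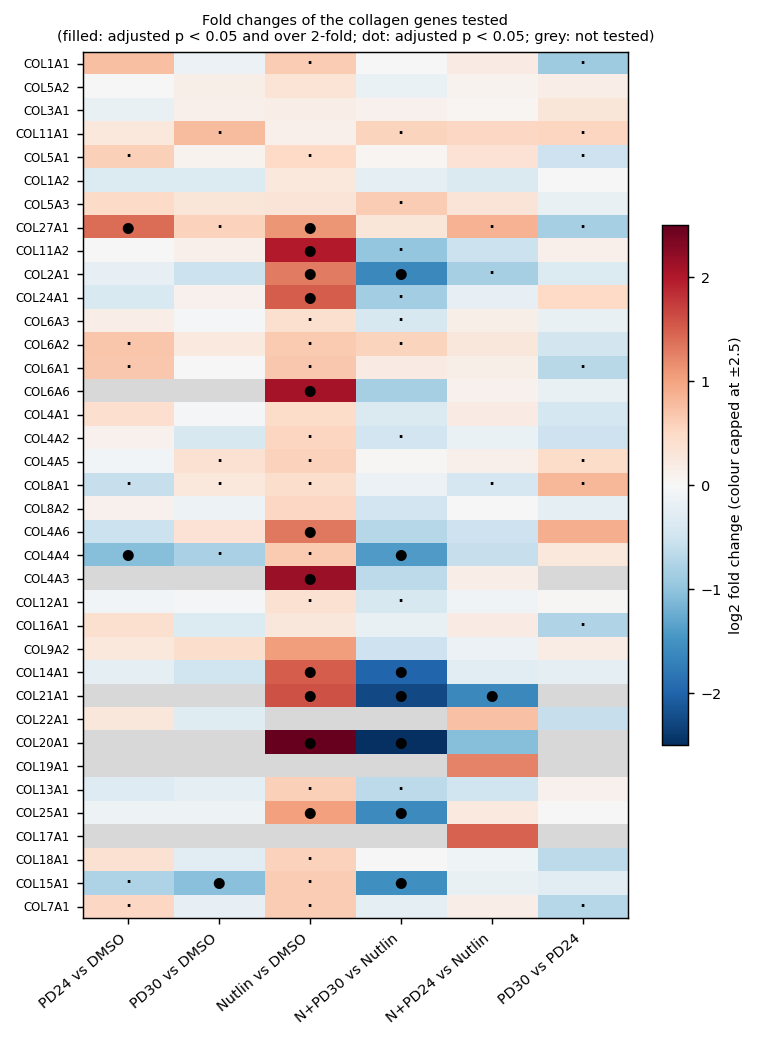
Log2 fold change of the collagen genes tested in at least 1 of 6 comparisons, with the class order of the plot of levels, colours capped at ±2.5 and grey where a gene was not tested. Filled circles mark an adjusted p under 0.05 with a change over 2-fold, 11 in Nutlin against DMSO and 7 in N+PD30 against Nutlin, and small dots an adjusted p under 0.05 alone.

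With PD0332991 present throughout, Nutlin-treated cells had lower levels of 7 collagens. In N+PD30 against Nutlin, 7 of 34 members fell and none rose, where 13.9% of all genes fell and 22.3% were called in either direction. At an adjusted p under 0.05 alone, 3 were higher (24.3% of all genes) and 13 lower (24.7%). COL20A1 and COL21A1, among the 7, again entered the test only through the Nutlin libraries. Over genes also tested in PD24 and PD30 against DMSO, 5 of 30 members fell, where 10.9% of all genes did. The median log2 fold change was -0.39 over the 34 members, beside 0.00 for all genes, and -0.31 over the 30, beside 0.04. In 14 of 34 members the groups did not overlap, against 57.5% of all genes. The Nutlin libraries serve here as the reference and in the comparison with DMSO as the treated group, so a low or high Nutlin library would move both.

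By class, the 6 FACIT genes tested had negative log2 fold changes, with a median of -1.25 and 3 called. Without COL20A1 and COL21A1 the FACIT median was -0.46 over 4 genes, with 1 called. The network genes had a median of -0.48 with 7 of 8 negative and 1 called, the 2 transmembrane genes -1.12 with 1 called, and the beaded filament genes -0.10 with none. Without COL4A3 the network median was -0.48, and without COL6A6 the beaded filament median was 0.20. The 11 fibrillar genes were balanced, with 6 positive, 5 negative, a median of 0.00 and 1 called. No test of the difference between classes was made.

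COL21A1 measured 0.315, 0.168 and 0.194 CPM in N+PD30 against 0.918, 1.17 and 0.884 CPM in Nutlin. All N+PD30 libraries were lower, with a log2 fold change of -2.26 (SE 0.38, adjusted p = 0.000675). COL14A1 measured 0.63, 0.47 and 0.339 CPM against 2.13, 2.0 and 1.22 CPM, again without overlap, a log2 fold change of -1.98 (SE 0.36, adjusted p = 0.00108). COL20A1 had 2, 0 and 0 counts in N+PD30 and was at least 7.87-fold lower than in Nutlin, against a floor of 3 counts per library (adjusted p = 0.000827). COL2A1 measured 0.63, 0.84 and 1.16 CPM, under all Nutlin libraries at 2.39, 2.5 and 3.13 CPM, with a log2 fold change of -1.61 (SE 0.27, adjusted p = 0.000595). COL25A1 measured 0.63, 0.874 and 1.26 CPM, under all Nutlin and, in all but library 3, all DMSO libraries. Its log2 fold change was -1.59 (SE 0.26, adjusted p = 0.000586). COL15A1 measured 4.57, 3.49 and 3.44 CPM against 10.5, 10.2 and 11.2 CPM in Nutlin. Every N+PD30 library was at less than 0.5 times the lowest Nutlin library, and its log2 fold change of -1.53 (SE 0.18, adjusted p = 7.99e-05) had the smallest p of the members. COL4A4 measured 0.551, 0.403 and 1.02 CPM against 1.84, 1.5 and 1.73 CPM, without overlap, a log2 fold change of -1.42 (SE 0.34, adjusted p = 0.00502). These 7 calls held under all 11 alternatives tried for each, although COL20A1 and COL21A1 had entered the test only through the Nutlin libraries.

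COL11A1 (0.55, adjusted p = 0.0236), COL5A3 (0.64, 0.0391) and COL6A2 (0.56, 0.0421) were the members higher in N+PD30 at an adjusted p under 0.05. COL11A1 measured 1602, 1666 and 1464 CPM against 1257, 1087 and 798 CPM in Nutlin, without overlap. Under a mean of 10 CPM, 7 of 14 members fell, where 24.0% of all genes did (5 of 10 and 17.6% over genes also tested in PD24 and PD30 against DMSO), and of those at 10 CPM or more 0 of 20 were called in either direction, where 6.89% of genes fell and 7.32% rose. CDH1, ACAN and PECAM1 fell among the markers of other cell types. Their part in the collagen changes was not tested.

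**Figure D5:**
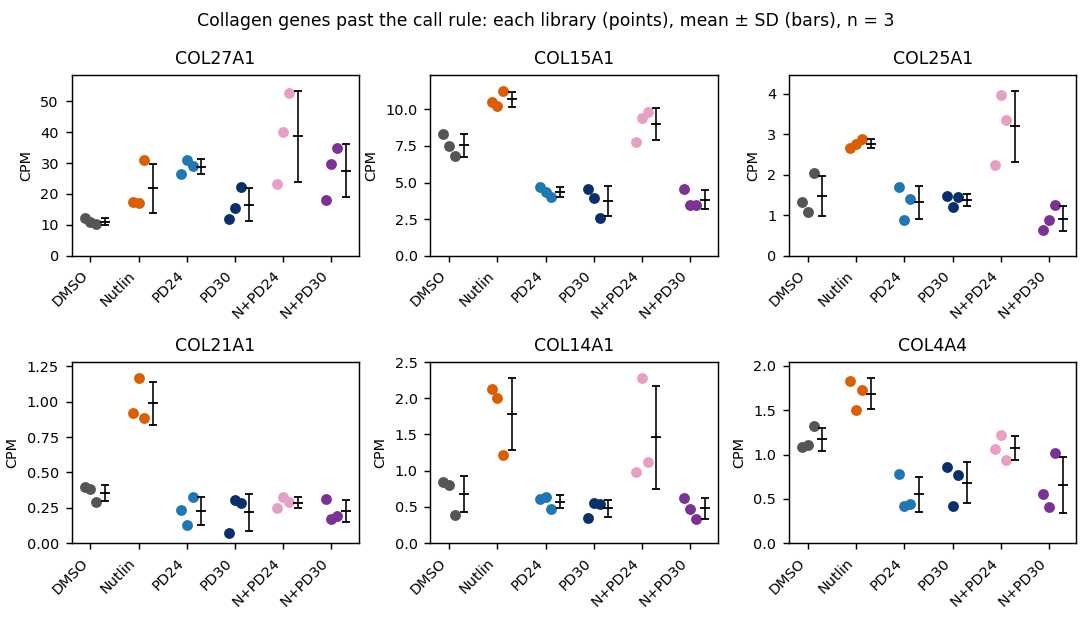
CPM of 6 called collagen genes in each library (points) with the mean ± SD of 3 (bars), by group. COL21A1, COL14A1, COL25A1 and COL4A4 were highest in Nutlin or N+PD24 and lower in N+PD30, COL15A1 was lower in PD24, PD30 and N+PD30 than in the group without PD0332991, and by less in N+PD24, and COL27A1 was raised in PD24.

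When PD0332991 was removed before Nutlin was added, 1 of 37 members fell against Nutlin alone and none rose, where 7.58% of all genes fell and 12.2% were called in either direction. The N+PD24 values are normalized, so this comparison was made with limma on log2(value + 1), a scale that understates the changes of low genes. COL21A1 measured 0.246, 0.325 and 0.289 CPM in N+PD24, all under the Nutlin libraries, with a log2 fold change of -1.60 (SE 0.30, adjusted p = 0.00296). COL2A1 (-0.83, adjusted p = 0.0246), COL8A1 (-0.41, 0.0287) and COL27A1 (0.87, 0.0395) passed the adjusted p and not the fold, so 4 in all passed the p, where 33.9% of all genes did. Libraries with the same number deviated together in this comparison. With the number as a block, limma called 4 members, adding COL17A1 (1.48) and COL19A1 (1.24) as higher and COL20A1 (-1.06) as lower. It called 2075 of 15927 genes. COL17A1 and COL19A1 were not tested in Nutlin against DMSO or in N+PD30 against Nutlin. They passed the filter on low counts here through the N+PD24 libraries, where they were high, so their rise was partly fixed by their entry. COL20A1 and COL21A1 had entered the tests above only through the Nutlin libraries, the reference here. COL15A1 measured 7.79, 9.39 and 9.82 CPM in N+PD24, under all 3 Nutlin libraries, with a log2 fold change of -0.18 (SE 0.14, adjusted p = 0.348), and COL25A1 2.25, 3.98 and 3.36 CPM. By separation, 7 of 37 members did not overlap, against 47.5% of all genes. Among the 7 markers of other cell types tested, SOX9 fell, at 19.3, 15 and 27.2 CPM in N+PD24 and 44.9, 50.4 and 47.2 CPM in Nutlin. The 9 markers summed to 146 to 188.9 CPM in N+PD24 and 212 to 235 CPM in Nutlin, and their part was not tested. Leaving out 1 library gave 1 to 4 calls. They were 3 without Nutlin library 1 (COL9A3 and COL19A1 added) or library 3 (COL17A1 and COL27A1 added), 4 without N+PD24 library 1 (COL17A1, COL22A1 and COL27A1 added) and 2 without N+PD24 library 2 (COL2A1 added) or library 3 (COL9A3 added).

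Whether the Nutlin response differed with PD0332991 was tested as an interaction. With PD30, 1 of 35 members differed past the call rule, COL25A1, with a difference of log2 fold changes of -1.43 (SE 0.36, adjusted p = 0.0136), where 4.94% of all genes were lower and 10.2% were called in either direction. COL25A1 measured 1.48, 1.2 and 1.45 CPM in PD30 and 0.63, 0.874 and 1.26 CPM in N+PD30, against 1.33, 1.08 and 2.04 CPM in DMSO and 2.65, 2.76 and 2.87 CPM in Nutlin. Nutlin libraries were higher than their control without PD0332991, while N+PD30 libraries overlapped the PD30 libraries. Leaving out DMSO library 1, Nutlin library 3, PD30 library 1 or 2 or N+PD30 library 1 or 3 let 1 more member past the rule (COL2A1, COL14A1, COL21A1, COL6A6, COL20A1 and COL2A1 in turn). With PD24, limma called 0 of 37 members, where 0.613% of all genes were called, and edgeR on the recovered reads also called 0. With the library number as a block, edgeR called 7 members in the PD30 interaction, all lower, where 1800 of 16113 genes were called. COL6A6 and COL20A1 among them had entered the comparison of Nutlin with DMSO only through the Nutlin libraries. For members other than COL25A1 with a Nutlin call, the main tests showed no difference in response with PD0332991. The PD24 and PD30 schedules were not compared with each other for the Nutlin response.

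The promoters of 31 of the 43 members were found in RefSeq (GRCh38.p14). The GC box GGGCGG, on either strand, was in 18 of them (58.1%), against 44.6% of 27305 promoters of the same length. CCAAT was in 10 (32.3%, against 35.7% of all) and TATAAA in 5 (16.1%, against 12%). The E2F motif GGCGGGAA was in 1, that of COL7A1 (3.23%, against 3.18%), and may overlap a GC box. The p53 half-site motif was in 1, that of COL17A1 (3.23%, against 6.54%). The median GC content was 66.0% over the members and 58.3% over all promoters. Of the 5 promoters printed, COL27A1 held 3 GC boxes, COL4A3 2 and COL15A1 1. A match describes letters in a window of 300 bases and not a bound site.

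Genes that make, process and bind collagen were read from 5 lists of 68 genes. In Nutlin against DMSO, 7 of 64 tested rose and none fell (ASPN and LOXL4 of these were not tested in PD24 or PD30 against DMSO and entered through the Nutlin libraries), and in N+PD30 against Nutlin 3 of 65 rose and 11 fell. In PD24 against DMSO 3 of 63 rose and 3 fell, and in PD30 against DMSO 2 of 62 rose and 4 fell. TLL1, among the rises of both, entered through the PD0332991 libraries. In N+PD24 against Nutlin 2 of 65 rose and 4 fell. In PD30 against PD24, 2 of 64 rose and 3 fell. The shares called among all genes are those given for the same comparisons above.

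The enzymes that modify proline and lysine in the new chains changed by less than 2-fold in PD24, PD30 and Nutlin against DMSO. Of 15 tested, none passed the call rule there. By the adjusted p alone 7, 8 and 9 were higher, beside 17.5%, 22.9% and 26.6% of all genes, and 0, 1 and 0 were lower. P4HA2, a catalytic subunit of prolyl 4-hydroxylase, measured 108, 109.8 and 106 CPM in DMSO and 173, 159.9 and 154 CPM in Nutlin. It measured 147, 144 and 159 CPM in PD24 and 185, 156 and 144 CPM in PD30. All drug libraries lay above DMSO, with log2 fold changes of 0.71 (SE 0.09, adjusted p = 0.000106), 0.50 (SE 0.08, adjusted p = 0.00179) and 0.57 (SE 0.10, adjusted p = 0.00123), each under 2-fold. P4HA1, the other main catalytic subunit, had log2 fold changes of 0.30 in Nutlin (adjusted p = 0.0894) and 0.40 in PD30 (0.00311). PLOD2, the lysyl hydroxylase of collagen telopeptides, had -0.34 in PD30 (0.0373) and -0.78 in N+PD30 against Nutlin (0.00727). LEPREL4 rose in N+PD30 against Nutlin by 1.04 on the log2 scale, and GLT25D2, a collagen galactosyltransferase, rose in N+PD24 against Nutlin by 1.02.

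Of the 13 genes for folding and secretion, 1 passed the call rule, SEC24D of the COPII coat, which rose in N+PD30 against Nutlin by 1.00 on the log2 scale (adjusted p = 5.83e-05). SERPINH1, which encodes the collagen chaperone HSP47, had log2 fold changes of 0.33 in Nutlin (adjusted p = 0.131) and -0.63 in PD30 against PD24 (0.0438).

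Processing and cross-linking genes held larger changes. LOXL3, a lysyl oxidase that cross-links fibrils, measured 6.85, 5.9 and 4.95 CPM in DMSO, 3.53, 2.7 and 2.16 in PD24 and 2.69, 2.89 and 2.44 in PD30. Every PD0332991 library was lower, with log2 fold changes of -1.06 (SE 0.22, adjusted p = 0.00571) and -1.16 (SE 0.18, adjusted p = 0.000538), and it also fell in N+PD30 (-1.01) and N+PD24 (-1.12) against Nutlin. LOX itself had log2 fold changes of 0.78 in PD24 (adjusted p = 0.0208) and 0.39 in PD30 (0.0332). TLL1, a protease of the procollagen C-proteinase family, measured 0.212, 0.243 and 0.162 CPM in DMSO, 1.36, 0.59 and 0.572 in PD24 and 1.86, 1.5 and 0.852 in PD30. It was higher in both (2.03 and 2.73) and in N+PD30 (1.65) and N+PD24 (2.48) against Nutlin. With DMSO this low, TLL1 passed the filter on low counts against DMSO through the PD0332991 libraries, where it was high. Its rise there was therefore partly fixed by its entry into the test. Its relative TLL2 measured 0.545, 0.277 and 0.453 CPM in DMSO, 5.37, 5.89 and 5.75 in Nutlin and 0.787, 0.84 and 0.775 in N+PD30. It rose with Nutlin (3.84 (SE 0.24, adjusted p = 2.46e-06)) and was lower in every N+PD30 library (-2.85 (SE 0.22, adjusted p = 3.17e-06)). LOXL4 also rose with Nutlin (2.56) and fell in N+PD30 against Nutlin (-1.12). It had entered through the Nutlin libraries, so both changes were partly fixed by that entry.

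Among receptors, GPR56, which binds type III collagen, rose in Nutlin (1.42) and PD24 (1.21). ITGA2, the alpha subunit of a collagen-binding integrin, measured 59.2, 35.5 and 51.8 CPM in PD24 and 15.9, 15.5 and 18.9 CPM in PD30. All PD30 libraries were lower (-1.58 (SE 0.18, adjusted p = 0.000611)), and ITGA2 fell in PD30 against DMSO (-1.05) and in N+PD30 against Nutlin (-1.26). DDR2, a tyrosine kinase receptor for fibrillar collagen, rose in PD30 against PD24 (1.06), ITGA10 fell in PD24 against DMSO (-1.08), and LAIR1 fell in N+PD30 against Nutlin (-1.06).

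The list of fibril-binding proteoglycans and glycoproteins held members that rose with Nutlin and members that fell in the combination relative to it. In Nutlin against DMSO 4 of 12 rose, namely TNXB (3.86), ASPN (3.21), KERA (1.36) and THBS2 (1.13), where 12.4% of all genes rose. In N+PD30 against Nutlin 6 of 12 fell, with ASPN (-2.76), KERA (-2.55) and DCN (-1.60) the largest, where 13.9% of all genes fell. ASPN had entered through the Nutlin libraries, so its rise there and its falls against them were partly fixed by that entry. DCN encodes decorin, which coats type I fibrils, and measured 119, 82.3 and 58.5 CPM in DMSO, 59.3, 28.4 and 21.5 in PD24 and 50.2, 36.4 and 28.2 in PD30. Library 1 was again the highest and library 3 the lowest of each, and the log2 fold changes were -1.23 (SE 0.37, adjusted p = 0.0283) and -1.20 (SE 0.27, adjusted p = 0.00471). BGN fell in PD30 against DMSO (-1.01), COMP rose in PD24 (1.93), and TNXB rose in PD30 (2.01). In N+PD24 against Nutlin ASPN (-1.53), DCN (-1.42) and KERA (-1.18) fell. In PD30 against PD24 TNXB rose (1.08), and COMP (-1.46) and THBS1 (-1.17) fell.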

How the data were processed

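RNA was sequenced from 18 libraries, 3 in each of 6 groups, which were taken from the sample labels. The authors mapped reads to hg19 with TopHat and Bowtie2 and assigned them to gene symbols with HTSeq 0.6.0, set for reverse-strand reads (labels and methods). They deposited counts for 15 libraries, although the tables are named as variance-stabilized. For N+PD24 the authors deposited a signal in which each library's counts had been divided by its own size factor. Multiplied back, 100% of its values were whole (tolerance 0.01), and CPM came from these libraries' own totals. Tables of the same counts scaled again, and the authors' own comparison of Nutlin with DMSO (fold changes and p-values), were not used.

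Groups deposited as counts were compared by edgeR 4.0.16 (R 4.3.3) quasi-likelihood tests with TMM and filterByExpr, in pairwise fits without a replicate block. SEs were derived from the test statistic. N+PD24 comparisons used limma 3.58.1 with a trend on log2 values with a pseudocount of 1. On the recovered reads edgeR called 1985 genes in N+PD24 against Nutlin, 1 of them a member, where limma called 1945. Calls needed a Benjamini-Hochberg adjusted p under 0.05 over all genes tested and an absolute log2 fold change over 1. Levels, shares and ratios were compared by exact two-sided permutation tests. Scripts were tested on simulated counts. DESeq2 1.42.0, total-count scaling, no filter, a pseudocount of 10, a fit over all 15 count libraries and leaving out each library were tried.

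The label numbers are shared between groups. Deviations of same-numbered libraries correlated at 0.51, 0.25 and 0.38 in N+PD24 with Nutlin over 16461 genes. In PD30 with PD24 they correlated at 0.24, 0.39 and 0.21. The main tests and the permutation tests nevertheless left the number out, so their p-values are unpaired. A block on the number was tried as an alternative, with 4 members called in N+PD24 against Nutlin instead of 1, and 0 in PD30 against PD24. In the interaction with PD30 the block gave 7 members instead of 1. The labels do not tie samples to separate cultures, so p-values measure the spread between these samples. Members, lists and tests were chosen with earlier results of these data known. Members named were all that passed the call rule, the top 2 of each class by level and the partner chains of common trimers. From the lists, the 3 largest rises and falls of each comparison were named, with P4HA1, P4HA2, SERPINH1, PLOD2 and LOX. Others were named after their values were seen. Coordinates and lengths are from GENCODE v44 lifted to GRCh37, and counting error limits precision at low counts.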

Additional observations from a re-analysis of the deposited data

Results flagged for a closer look

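A test of the difference between Nutlin's effect with and without continuous PD0332991 picked out 1 collagen and 4 genes of the collagen lists. The difference of log2 fold changes by edgeR's quasi-likelihood test was -1.43 (SE 0.36, adjusted p = 0.0136) for COL25A1. It ranged from -1.70 to -1.25 over 16 alternatives, with adjusted p from 0.00358 to 0.0425. It was -3.48 (SE 0.33, adjusted p = 8.79e-05) for TLL2, -2.84 (SE 0.53, adjusted p = 0.00251) for TNXB, -1.87 (SE 0.50, adjusted p = 0.0177) for LOXL4 and -1.78 (SE 0.41, adjusted p = 0.00837) for KERA. LOXL4 had entered the comparison of Nutlin with DMSO through the Nutlin libraries, so its negative difference was partly fixed by that entry. In all 5 the log2 fold change with Nutlin was lower in the presence of PD0332991. A lower value does not mean that the response kept its direction there.

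With PD0332991 removed before Nutlin, limma picked out TLL2, with a difference of -1.87 (SE 0.35, adjusted p = 0.0298). TLL2 measured 0.883, 0.59 and 0.92 CPM in PD24 and 2.5, 2.79 and 3.11 CPM in N+PD24, against 0.545, 0.277 and 0.453 CPM in DMSO and 5.37, 5.89 and 5.75 CPM in Nutlin. Explanations for these differences were not tested.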

How the results depend on the processing

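The 23 calls of single collagens were refitted under 258 alternatives, of which 246 kept them and 12 lost them, in 4 gene and comparison pairs (COL4A4 in PD24, COL15A1 in PD30, COL25A1 and COL27A1 in Nutlin). None turned direction. For the 46 pairs past the adjusted p and under 2-fold, refitted under 506 alternatives, the p was kept in 369 and lost in 137.

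With no limit on the fold, the members called numbered 8 in PD24 against DMSO, 6 in PD30 against DMSO, 25 in Nutlin against DMSO, 16 in N+PD30 against Nutlin, 4 in N+PD24 against Nutlin and 9 in PD30 against PD24. Without the filter on low counts there were 5 in PD24 against DMSO and 1 in PD30 against PD24, and in 1 fit over 15 libraries 4 and 1. Leaving out 1 library gave 1 to 3 in PD24 against DMSO, 0 to 2 in PD30 against DMSO, 10 to 13 in Nutlin against DMSO, 7 to 10 in N+PD30 against Nutlin, 1 to 4 in N+PD24 against Nutlin, 1 in PD30 against PD24 and 1 to 2 for the interaction with PD30. The cause was not tested.

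With the replicate number as a block, 4 members were called in N+PD24 against Nutlin, where 2075 of 15927 genes were called. In the interaction with PD30 the block gave 7 members, beside 1800 of 16113 genes. There COL6A6, COL11A2, COL14A1, COL20A1, COL24A1 and COL4A6 joined COL25A1. COL6A6 and COL20A1 had entered the comparison of Nutlin with DMSO only through the Nutlin libraries. In the comparisons of PD24, PD30 and Nutlin with DMSO and of N+PD30 with Nutlin, at least 1 pair of same-numbered libraries correlated under 0.1. Correlations ran from -0.17 to 0.44 over these comparisons, and the interaction with PD30 uses groups from them. They do not settle whether same-numbered libraries are paired, and 8.43% of 8023 genes were highest in library 3 in all 6 groups. The block changed no other count. Another gene length (all exons) multiplied the 30 group means of partner ratios by a fixed factor for each pair, and 22 moved by more than their SD. Over genes also tested in PD24 and PD30 against DMSO, chosen after seeing the data, 7 members were called in Nutlin against DMSO and 5 in N+PD30 against Nutlin. At low counts, under about 1 CPM, small changes were not detectable at this depth.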
